A study of Homo sapiens with 9 samples.

Results

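The libraries numbered 3 are 3 of the 9 RNA sequencing libraries of a study that lowered OPA1, a mitochondrial GTPase needed to fuse inner membranes, in cells labelled Huh7. They are the libraries named with a 3 in the control group, in the knock-down set N_28 and in the knock-down set N_30. They were set apart by that number, with earlier results of these counts known. Each was set against libraries 1 and 2 of its own group, which makes 3 libraries against 6 with the group as a block. Huh7 is a hepatocellular carcinoma line, grown in DMEM per the labels. The treatment field names OPA1 knock-down by lentivirus for the control libraries as well, and the labels do not say what the controls received, what N_28 and N_30 stand for, or what the number marks. Whether the libraries of 1 group are separate cultures is not stated, so the spread behind each p-value may be a technical one.

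Depth was 16476389 to 21020319 counts in the libraries numbered 1 and 2 and 22164035, 22863328 and 22400589 in those numbered 3, so the library numbered 3 was the deepest of its group each time. Of 18 hepatocyte markers, 9 passed the filter on low counts, and APOB and APOC3 had no read in any library. ALB, the albumin gene, had 24 reads over all 9 libraries, so the hepatocyte label is not borne out by this gene. The summed level of the 18 markers was 62.0, 60.1 and 64.3 CPM in control, 48.6, 49.7 and 52.0 CPM in N_28 and 67.2, 56.9 and 68.2 CPM in N_30 for libraries 1, 2 and 3 of each group. The largest part of these sums was CPS1, at 27.8 to 39.7 CPM. Of 10 blood, 9 endothelial and 10 fibroblast markers, 1, 1 and 4 were tested, and none was called by number in edgeR or DESeq2 or had an unadjusted p under 0.05. CPM are counts scaled to library sizes corrected by the trimmed mean of M values (TMM). Gene positions are from GENCODE 29, human build GRCh38. OPA1 (ENSG00000198836, chromosome 3, 193593144 to 193697823, plus strand) stood at 82.8, 92.9 and 90.5 CPM in control, 53.3, 55.7 and 57.8 CPM in N_28 and 64.2, 63.3 and 65.9 CPM in N_30. All 6 knock-down libraries were below all 3 controls. The libraries numbered 3 did not pass the test for it, with a log2 difference of 0.06 (SE 0.05, adjusted p = 0.601), tested with edgeR.

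A cell that divides builds its mitotic machinery late in the cycle. Cyclin B with CDK1 and the kinases PLK1 and AURKA bring the cell into mitosis, kinetochore proteins tie chromosomes to the spindle, and the anaphase promoting complex ends mitosis by marking cyclin B and securin for destruction. The promoters of many of these genes carry a cell cycle homology region (CHR, the letters TTTGAA or the variant TTTAAA) close to the start site and CCAAT boxes further upstream. Through these elements the genes are held silent early in the cycle by the DREAM complex and are switched on later by B-MYB, FOXM1 and NF-Y. Genes of DNA synthesis, which peak earlier in the cycle, more often carry E2F letters.

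The promoters of 5 mitosis genes that rose in the libraries numbered 3 are printed because each holds CCAAT and the CHR letters or their variant. Each is the 250 bases before the RefSeq start on GRCh38.p14, 5′ to 3′ along the gene, with CCAAT (or ATTGG, its reverse complement) and the CHR letters in capitals. The windows are chr16:23678639-23678888 for PLK1, chr15:59104896-59105145 for CCNB2, chr5:69166900-69167149 for CCNB1, chr1:214602945-214603194 for CENPF and chr5:160421605-160421854 for PTTG1, the last being 1 of 2 starts listed, and all 5 lie on the plus strand. TTTAAA was put in capitals only where the window has no TTTGAA.
PLK1: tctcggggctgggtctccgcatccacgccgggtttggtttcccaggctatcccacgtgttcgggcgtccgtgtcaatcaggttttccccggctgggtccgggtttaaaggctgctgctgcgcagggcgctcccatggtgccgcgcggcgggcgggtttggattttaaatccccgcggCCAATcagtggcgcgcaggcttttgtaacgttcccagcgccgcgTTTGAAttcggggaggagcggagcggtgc
CCNB2: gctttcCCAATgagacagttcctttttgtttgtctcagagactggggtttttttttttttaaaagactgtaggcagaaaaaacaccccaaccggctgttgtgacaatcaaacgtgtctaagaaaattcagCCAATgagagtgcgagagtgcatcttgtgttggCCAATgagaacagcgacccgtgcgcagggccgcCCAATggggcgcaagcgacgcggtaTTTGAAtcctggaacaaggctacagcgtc
CCNB1: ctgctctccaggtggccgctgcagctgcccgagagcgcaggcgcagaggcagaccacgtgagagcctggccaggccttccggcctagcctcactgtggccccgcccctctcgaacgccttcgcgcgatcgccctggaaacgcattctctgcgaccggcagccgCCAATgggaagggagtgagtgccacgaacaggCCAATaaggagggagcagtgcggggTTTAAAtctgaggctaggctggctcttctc
CENPF: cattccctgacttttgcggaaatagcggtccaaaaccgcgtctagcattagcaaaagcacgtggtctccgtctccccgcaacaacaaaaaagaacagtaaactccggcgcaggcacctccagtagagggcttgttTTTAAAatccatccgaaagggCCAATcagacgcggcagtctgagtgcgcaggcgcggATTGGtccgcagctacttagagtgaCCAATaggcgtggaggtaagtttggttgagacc
PTTG1: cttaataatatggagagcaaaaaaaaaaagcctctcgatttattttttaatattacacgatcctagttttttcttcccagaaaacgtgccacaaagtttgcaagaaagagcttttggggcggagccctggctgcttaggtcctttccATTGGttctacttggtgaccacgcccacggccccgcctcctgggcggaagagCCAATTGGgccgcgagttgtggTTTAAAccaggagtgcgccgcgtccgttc
In PLK1 and CCNB2 the letters TTTGAA begin 29 bases before the start. TTTAAA begins 30 bases before the start of CCNB1, 29 before that of PTTG1 and 115 before that of CENPF. In CENPF these letters lie upstream of all its CCAAT boxes, and in the other 4 they lie between the boxes and the start. CCNB2 holds 4 CCAAT boxes, CENPF and PTTG1 hold 3 each on either strand, CCNB1 holds 2 and PLK1 holds 1.

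The letters were counted on both strands in all such windows. TTTGAA was in 50.5% of the 91 windows of mitosis genes that passed the test upwards (76 of the 88 genes had a window), in 14.3% of the 70 windows of mitosis genes that did not pass, in 8.96% of the 15984 windows of all tested genes and in 13.3% of all 35116 windows of that table. CCAAT was in 70.3%, 48.6%, 32.8% and 32.0% of the same sets. It was also in 56.5% of the 62 windows of G1/S and replication genes, so it was not particular to the mitosis genes. TTTAAA, which reads the same on both strands, was in 18.7%, 8.57%, 7.95% and 11.3%. The E2F letters TTTCCCGC were in 1.1% of the windows of risen mitosis genes and 7.14% of those of mitosis genes that did not pass. They were in 17.7% of the 62 windows of G1/S and replication genes and 1.39% of all windows. Genes that passed upwards outside the mitosis lists had TTTGAA in 13.6% and CCAAT in 42.5% of 294 windows. In PTTG1 a CCAAT and an ATTGG overlap by 2 letters. A match describes letters and does not show that a factor is bound.

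Between the libraries numbered 3 and the others, 664 of 15019 tested genes passed an adjusted p (Benjamini-Hochberg) of 0.05 in edgeR's quasi-likelihood test, 4.42% of those tested. Of these, 336 were higher (2.24%) and 328 lower (2.18%). The changes were small: 114 of the 664 reached 0.5 on the log2 scale, and the median size was 0.33 among the higher and 0.32 among the lower. Over all genes tested, the library numbered 3 lay above both others in all 3 groups for 1294 genes (8.62%) and below both for 1393 (9.27%). How many tested genes had all 3 libraries numbered 3 above, or all below, the 6 others was not counted. Many genes named below were chosen by the test on these libraries, so nothing is read from such a separation. Libraries 2 and 1 did not give a called gene in edgeR when set against each other (0 of 15019, 0%), with 833 genes (5.55%) at an unadjusted p under 0.05, against 2610 (17.4%) for number 3. That comparison sets 3 libraries against 3, with the number as 3 levels, and has less power than 3 against 6. The division by number was taken up with earlier results of these counts known, so the counts describe these libraries and are no independent evidence that they differ. The count fell to 105 with the N_30 group left out and to 132 without N_30 library 3. It was 295 without control library 3, 420 without N_28 library 3, 337 with the N_28 group left out and 331 without the 3 libraries numbered 2. It rose to 1531 without control library 1 and to 1301 without all 3 numbered 1.

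Genes of the mitotic machinery rose in the libraries numbered 3. Of 140 mitosis genes in 5 lists, all of which were tested, 88 were higher, none was lower (1 at an unadjusted p under 0.05) and 52 did not pass, and DESeq2 also gave 88 and 0. The 140 genes make up 0.932% of tested genes and 26.2% of those called higher. Their median log2 difference was 0.25, beside -0.01 over all genes tested. Of the 140, 99 lay above both other libraries in all 3 groups, as did 8.62% of all genes tested. CENPF, CCNB1 and PTTG1 were given as markers with the division by number, and the lists were chosen with earlier results of these data known. These values thus describe the libraries and are no independent evidence. The summed level of the 140 genes was 15162, 15434 and 19072 CPM in control, 15931, 16427 and 18416 CPM in N_28 and 13960.4, 15109.8 and 18562 CPM in N_30. In each group the library numbered 3 was thus the highest, and the 3 of them overlapped with none of the other 6. More cells in mitosis and more transcript per cell cannot be told apart in bulk RNA. The count of 88 fell to 41 with the N_30 group left out and to 52 without N_30 library 3.

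Mitotic cyclins and kinases rose in 20 of 28 cases, with a median of 0.32. PLK1, the kinase that drives centrosome maturation and mitotic entry (ENSG00000166851, chromosome 16, 23677656 to 23690367, plus strand), stood at 168, 156 and 271 CPM in control libraries 1, 2 and 3, 172, 168 and 246 CPM in N_28, and 143, 174 and 278 CPM in N_30. All 3 libraries numbered 3 were above all 6 others, and the difference was 0.70 (SE 0.06, adjusted p = 1.31e-05) on the log2 scale. It was seen in each group, at 0.74 in control, 0.53 in N_28 and 0.82 in N_30. CCNB1, cyclin B1, stood at 149.8, 158 and 252 CPM in control, 198, 196 and 245 CPM in N_28 and 143, 177 and 254 CPM in N_30, a log2 difference of 0.57 (SE 0.07, adjusted p = 0.000157). The 2 other N_28 libraries were the highest of those numbered 1 and 2 and still below all 3 numbered 3. CCNB2, cyclin B2, stood at 36.9, 40.7 and 56.4 CPM in control, 42.5, 41.1 and 52.7 CPM in N_28 and 36.6, 39.8 and 63.1 CPM in N_30, again with no overlap, and differed by 0.53 (SE 0.06, adjusted p = 0.000153). AURKA, the centrosome kinase, stood at 169, 175 and 275 CPM in control, 182, 176 and 238 CPM in N_28 and 164, 199 and 279 CPM in N_30 and differed by 0.57 (SE 0.06, adjusted p = 5.45e-05).

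**Figure D1:**
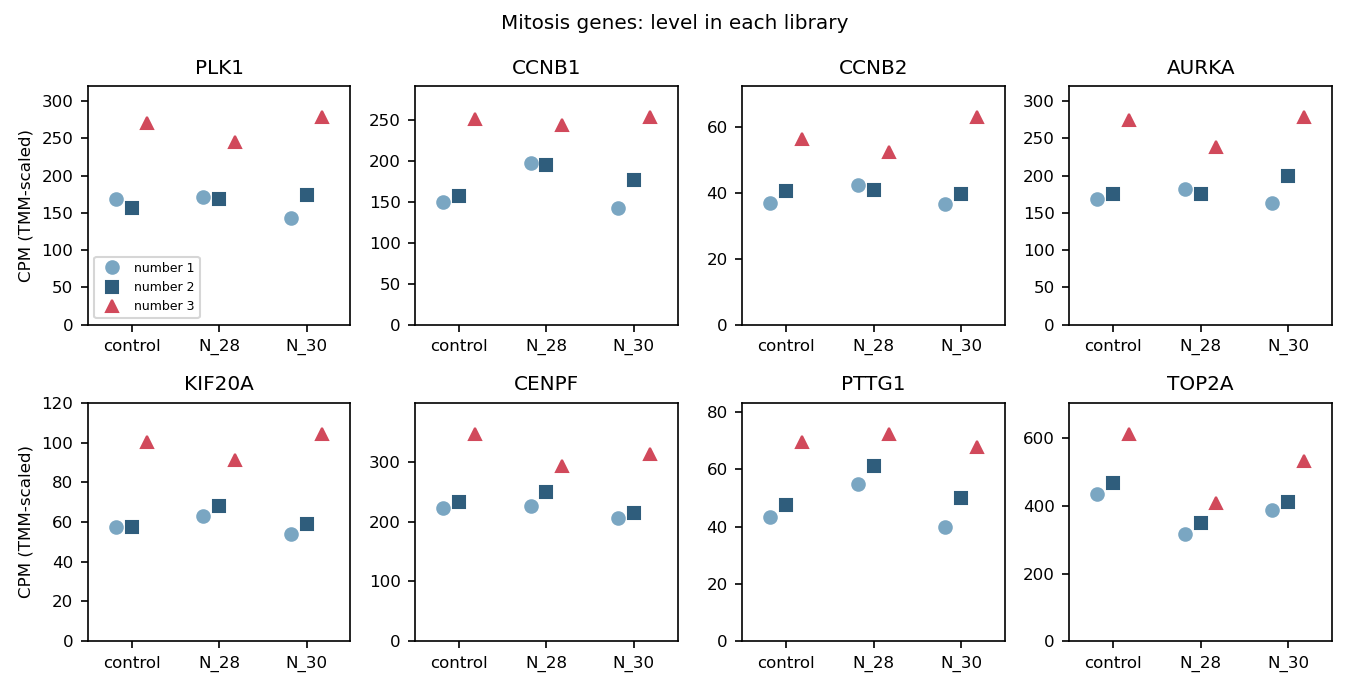
Level of 8 mitosis genes in each of the 9 libraries, in CPM on TMM-scaled library sizes (vertical axis, from 0), by group (horizontal axis). Circles are libraries numbered 1, squares 2 and triangles 3. In every panel the triangle is the highest point of its group, and for TOP2A the N_28 triangle at 408 CPM lies below control points.

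Beside PLK1, the members of the list ran from CDC25A, a phosphatase of G1/S, at -0.15 (adjusted p = 0.244) to NEK2, a centrosome kinase, and BORA, an activator of PLK1, both at 0.64 (adjusted p = 0.000124 and 0.00744). GTSE1, a microtubule protein of G2 and mitosis, rose by 0.51 (adjusted p = 5.45e-05). FOXM1, the transcription factor that drives many of these promoters, stood at 141, 135 and 174 CPM in control, 151, 149 and 174 CPM in N_28 and 127, 146 and 179 CPM in N_30 and differed by 0.31 (SE 0.05, adjusted p = 0.0018). CDK1, the partner of cyclin B, stood at 119, 128 and 145 CPM in control, 121, 127 and 135 CPM in N_28 and 109, 120.2 and 139.95 CPM in N_30. It differed by 0.21 (SE 0.05, adjusted p = 0.021). WEE1 and PKMYT1, the kinases that hold CDK1 inactive, had log2 differences of 0.06 (adjusted p = 0.607) and 0.08 (adjusted p = 0.475). BORA, FOXM1, CDK1 and the 3 genes that did not pass were named after their values were seen.

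Spindle and cytokinesis genes rose in 34 of 35 cases, with a median of 0.39. The 35 lay above both other libraries in all 3 groups, as did 8.62% of all genes tested. KIF20A, the kinesin of the central spindle (ENSG00000112984, chromosome 5, 138178719 to 138187715, plus strand), stood at 57.3, 57.5 and 100.1 CPM in control, 63.2, 68.2 and 91.4 CPM in N_28 and 54.1, 58.9 and 105 CPM in N_30. It differed by 0.72 (SE 0.06, adjusted p = 1.31e-05), and the lowest library numbered 3 was above the highest of the others. DLGAP5, a protein of spindle fibres at the kinetochore, stood at 57.4, 63.8 and 106 CPM in control, 68.8, 79.5 and 94.1 CPM in N_28 and 54.5, 62.7 and 102 CPM in N_30, a difference of 0.65 (SE 0.08, adjusted p = 0.000127). FAM83D, DEPDC1B and ASPM rose by 0.56, 0.57 and 0.50 (adjusted p = 5.45e-05, 6.65e-05 and 0.000103). The only member that did not pass was KIF5B, the conventional kinesin of cargo transport, at 0.11 (adjusted p = 0.25).

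Kinetochore and centromere genes rose in 15 of 35 cases, with a median of 0.17. CENPF, a large protein of the outer kinetochore made in G2 (ENSG00000117724, chromosome 1, 214603195 to 214664588, plus strand), stood at 224, 233 and 347 CPM in control, 226, 249.7 and 293 CPM in N_28 and 206, 215 and 313 CPM in N_30. Its lowest library numbered 3, that of N_28, was above the highest of the other 6, and the difference was 0.50 (SE 0.06, adjusted p = 0.000103). CENPE, the kinetochore kinesin, rose by 0.60 (SE 0.06, adjusted p = 5.45e-05). BIRC5 (survivin) rose by 0.43 (adjusted p = 0.000103) and SGO2, which guards centromere cohesion, by 0.50 (adjusted p = 0.000186). Members that did not pass included CENPM at 0.15 (adjusted p = 0.186) and SKA1 at 0.13 (adjusted p = 0.439).

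For the anaphase promoting complex and mitotic exit, 7 of 23 members rose, with a median of 0.06. The 7 were substrates and partners of the complex more than its core: PTTG1 (securin), CDC20 and FZR1 (its activators), UBE2C and UBE2S (its ubiquitin-conjugating enzymes), ESPL1 (separase) and the subunit CDC27. PTTG1 (ENSG00000164611, chromosome 5, 160421822 to 160428744, plus strand) stood at 43.3, 47.7 and 69.6 CPM in control, 55.1, 61.2 and 72.5 CPM in N_28 and 39.9, 50.2 and 67.8 CPM in N_30, a difference of 0.51 (SE 0.07, adjusted p = 0.000449). The libraries numbered 3 were above all others. CDC20 stood at 209.6, 229.5 and 324 CPM in control, 282, 274 and 309.7 CPM in N_28 and 193, 243 and 325 CPM in N_30 and differed by 0.43 (SE 0.08, adjusted p = 0.00262). Core subunits such as ANAPC1 and ANAPC7, at 0.06 and 0.08, did not pass (adjusted p = 0.596 and 0.474). The genes other than PTTG1, UBE2S, ESPL1 and FZR1 were named after their values were seen.

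Chromosome condensation genes rose in 12 of 19 cases, with a median of 0.23. TOP2A, the topoisomerase that untangles mitotic chromosomes, stood at 434, 468 and 614 CPM in control, 318, 349.6 and 408 CPM in N_28 and 387, 411 and 533 CPM in N_30. Within each group the library numbered 3 was the highest, with a difference of 0.38 (SE 0.05, adjusted p = 0.000191), while across groups the values overlapped, N_28 lying lower as a whole. NCAPD2, a condensin subunit, rose by 0.43 (adjusted p = 0.000103), KPNA2, a nuclear import adaptor, by 0.41 (adjusted p = 0.000164), and HMGB2, a chromatin protein, by 0.36 (adjusted p = 0.000196).

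**Figure D2:**
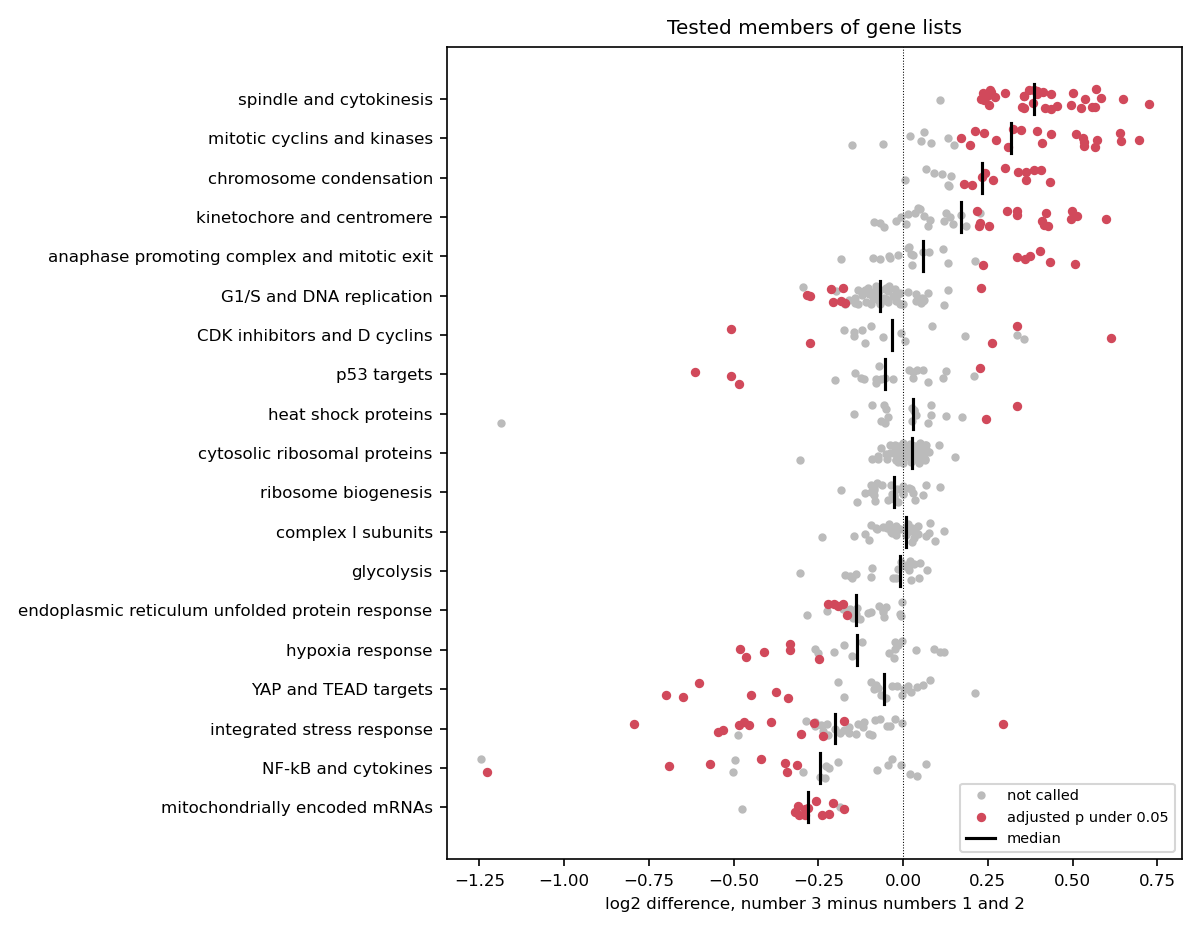
Log2 difference between the libraries numbered 3 and those numbered 1 and 2 (horizontal axis) for each tested member of 19 gene lists (rows). Red points passed an adjusted p of 0.05, grey points did not, and the black bar is the list's median. Spindle genes lie to the right of 0 with a median of 0.39, and mitochondrially encoded mRNAs lie to the left with a median of -0.28.

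For genes of the earlier cell cycle the calls ran mostly downwards. Of 58 G1/S and DNA replication genes, 1 was higher, 7 were lower and 50 did not pass, with a median of -0.07. MCM6, a subunit of the replicative helicase, stood at 157, 154 and 120.1 CPM in control, 154, 158 and 135 CPM in N_28 and 148, 147 and 121 CPM in N_30, a difference of -0.28 (SE 0.05, adjusted p = 0.00154), and all 3 libraries numbered 3 were below all others. CCNE1 (cyclin E1) differed by -0.28 (SE 0.06, adjusted p = 0.0152) and POLA1, the catalytic subunit of DNA polymerase alpha, by -0.21 (SE 0.05, adjusted p = 0.0289). GINS4 was the 1 that rose, by 0.23 (SE 0.05, adjusted p = 0.0121). Of 59 replication-dependent histone genes, 15 were tested and none passed in edgeR or in DESeq2, with 1 higher at an unadjusted p under 0.05. Their median was 0.23, and 10 of the 15 had a positive difference. All 59 took 0.00282%, 0.00243% and 0.00281% of counts in the libraries numbered 3 of control, N_28 and N_30, the highest of each group. An exact permutation test of the number within groups gave p = 0.037 for this share (0.0617 after adjustment over 10 library measures). The 7 calls among G1/S genes were 0 with the N_30 group left out, 1 with control or N_28 left out, 1 without N_30 library 3 or control library 3, 2 without control library 2, N_28 library 2 or N_30 library 2, 3 without N_28 library 1 or 3, and 4 at equal depth.

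Inhibitors of cyclin-dependent kinases moved both ways. Of 18 tested members of that list, 3 rose, 2 fell and 13 did not pass. CDKN2C (p18), an inhibitor of CDK4 and CDK6, stood at 43.5, 37.0 and 55.9 CPM in control, 41.8, 42.5 and 57.5 CPM in N_28 and 33.7, 33.2 and 63.1 CPM in N_30, a difference of 0.61 (SE 0.08, adjusted p = 0.000157). CDKN1A (p21), the inhibitor induced by p53, stood at 39.5, 42.1 and 26.8 CPM in control, 56.3, 43.1 and 39.7 CPM in N_28 and 52.9, 56.4 and 36.0 CPM in N_30. Its control and N_30 libraries numbered 3 were the lowest of the 9, and the difference was -0.51 (SE 0.08, adjusted p = 0.000981). CDKN3 rose by 0.34 (adjusted p = 0.00192) and RBL1 (p107), a DREAM component, fell by 0.28 (adjusted p = 0.0105). Of 23 tested p53 targets, CDKN1A, GDF15 and SESN2 fell, CCNG1 rose, and 19 did not pass.

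Rises outside the mitosis lists were led by single genes. By size the first 2 were rows with no symbol, ENSG00000278047 and ENSG00000276924. The first had 10, 0 and 1074 counts in control libraries 1, 2 and 3, 3, 1 and 37 in N_28, and 0, 7 and 3815 in N_30. The second had 921 counts in control library 3 and 41 to 100 in the other 8, so it rests on 1 library. TNFAIP8L1, a TNFAIP8 family member (ENSG00000185361, chromosome 19, 4639518 to 4655568, plus strand), stood at 11.2, 9.86 and 19.7 CPM in control, 11.4, 11.6 and 19.3 CPM in N_28 and 9.39, 10.2 and 20.2 CPM in N_30, a difference of 0.90 (SE 0.08, adjusted p = 1.31e-05). Its libraries numbered 3 lay within 1 CPM of each other and well above the rest. PIF1, a DNA helicase, stood at 18.1, 19.4 and 36.3 CPM in control, 23.5, 21.5 and 34.5 CPM in N_28 and 18.5, 22.9 and 41.2 CPM in N_30, a difference of 0.85 (SE 0.08, adjusted p = 2.04e-05). CEP70, a centrosome protein, rose by 0.65 (SE 0.09, adjusted p = 0.000294), and HOGA1, an enzyme of hydroxyproline breakdown, by 0.76 (SE 0.16, adjusted p = 0.00964). TINAGL1, a matrix protein, stood at 38.7, 30.5 and 49.2 CPM in control, 103, 101 and 135 CPM in N_28 and 29.3, 32.3 and 58.0 CPM in N_30, with a difference of 0.60 (SE 0.08, adjusted p = 0.000294). Its N_28 libraries were the highest whatever their number, and the N_28 difference from control was 1.52 (adjusted p = 5.6e-04).

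The 12 largest falls held genes of several roles. HMOX1, heme oxygenase 1, an antioxidant enzyme (ENSG00000100292, chromosome 22, 35380361 to 35394214, plus strand), stood at 46.7, 81.2 and 36.7 CPM in control libraries 1, 2 and 3, 77.8, 47.0 and 31.3 CPM in N_28, and 104, 125 and 46.8 CPM in N_30. The library numbered 3 was the lowest of each group, but N_30 library 3 was at the level of control library 1. The difference was -1.04 (SE 0.16, adjusted p = 0.000967). ATF3, a stress-induced transcription factor, stood at 5.92, 7.21 and 3.05 CPM in control, 4.62, 5.06 and 3.23 CPM in N_28 and 5.90, 7.35 and 2.85 CPM in N_30 and differed by -0.97 (SE 0.15, adjusted p = 0.000956). The 3 libraries numbered 3 were the lowest of the 9. SAT1, the enzyme that starts polyamine breakdown, stood at 133, 169 and 96.5 CPM in control, 178, 138 and 108 CPM in N_28 and 172, 194 and 85.8 CPM in N_30, a difference of -0.75 (SE 0.10, adjusted p = 0.000289). MMP1, a secreted collagenase, stood at 914, 1234 and 699 CPM in control, 1287, 1141 and 769 CPM in N_28 and 1067, 1284 and 737 CPM in N_30, also with no overlap, and differed by -0.65 (SE 0.08, adjusted p = 0.000157). The 12 largest falls also held ALS2CL at -1.02, DNER at -0.84, SUCNR1 at -0.79, F3 at -0.70 and MYO15B at -0.68 (adjusted p = 0.000803, 0.0029, 0.0215, 0.00636 and 0.0209). With the N_30 group left out, HMOX1 and ATF3 did not pass (adjusted p = 0.0827 and 0.0503), whereas SAT1 and MMP1 passed in all 22 alternatives run on single genes.

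**Figure D3:**
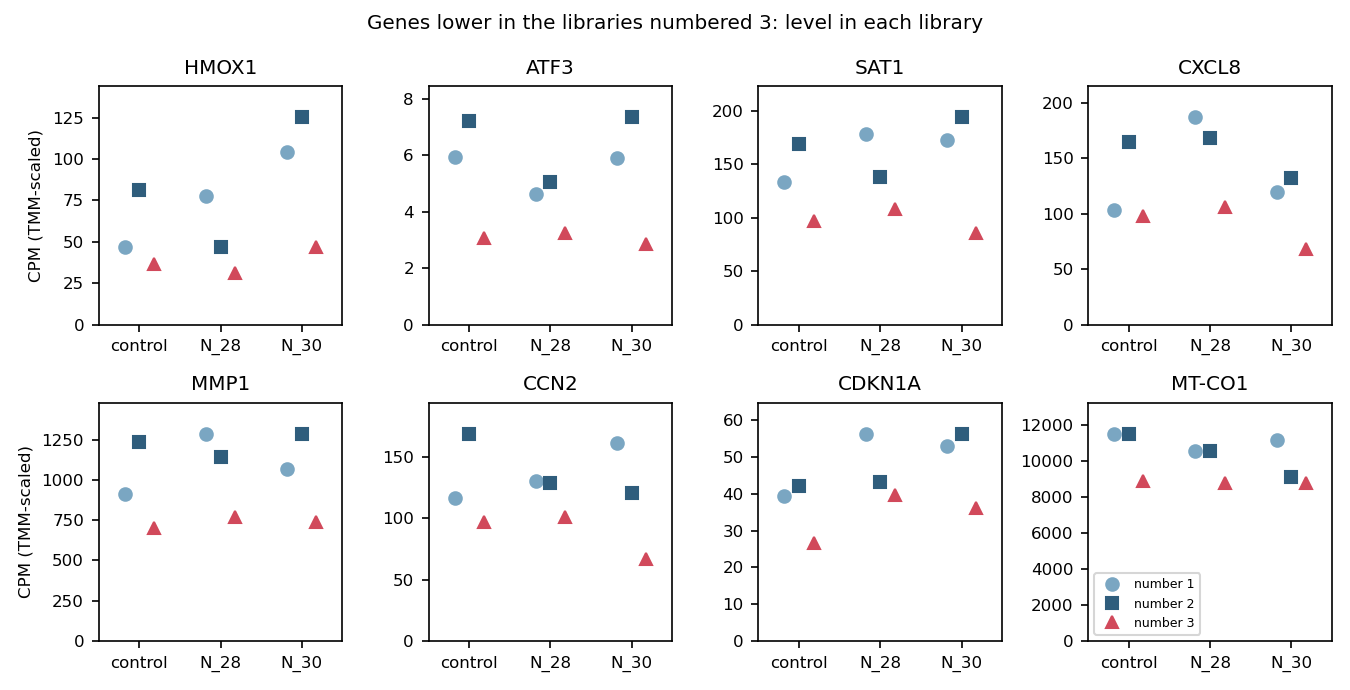
Level of 8 genes that were lower in the libraries numbered 3, in CPM on TMM-scaled library sizes (vertical axis, from 0), by group (horizontal axis). Circles are libraries numbered 1, squares 2 and triangles 3. The triangle is the lowest point of its group in each panel, and the 3 MMP1 triangles lie between 699 and 769 CPM, below all circles and squares.

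Members of the integrated stress response, the programme run by ATF4 when translation is curbed, fell in 11 of 37 tested cases and rose in 1, with a median of -0.20. A median of -0.13 in control, -0.18 in N_28 and -0.26 in N_30 was seen within groups, and 1 of the 37 members had a positive difference. SLC7A11, the cystine transporter, stood at 31.3, 52.1 and 26.9 CPM in control, 67.2, 37.3 and 30.2 CPM in N_28 and 41.6, 45.0 and 22.2 CPM in N_30, a difference of -0.80 (SE 0.16, adjusted p = 0.0072). STC2, a secreted glycoprotein, stood at 497, 629.5 and 398 CPM in control, 667, 519 and 442 CPM in N_28 and 645, 757 and 427 CPM in N_30, and its libraries numbered 3 were below the rest, with a difference of -0.55 (SE 0.09, adjusted p = 0.00116). GPT2, an alanine aminotransferase, fell by 0.30 (adjusted p = 0.00943). ATF5, a transcription factor of the same programme, was the member that rose, by 0.29 (SE 0.05, adjusted p = 0.00319). The 11 calls became 0 with the N_30 group left out and 0 without N_30 library 3. They were 5 without control library 3 or N_28 library 3, 6 without N_28 library 1, N_30 library 1 or the N_28 group, 7 without control library 2 and 23 without control library 1.

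Genes of the endoplasmic reticulum unfolded protein response, among them chaperones and folding enzymes, had differences of 1 sign. A negative difference was seen in 24 of 24 tested members, 5 passed downwards and 19 did not, with a median of -0.14. HSP90B1 differed by -0.22 (SE 0.05, adjusted p = 0.0192) and PDIA4 by -0.19 (SE 0.04, adjusted p = 0.0192). These calls were 0 with N_30 left out, 0 without N_30 library 3 or without the libraries numbered 2, 1 with control or N_28 left out or without any 1 of 5 further libraries, 3 without N_30 library 1, 2 at equal depth and 9 without control library 1. Of 20 tested cytosolic heat shock genes, BAG3 rose by 0.34 (SE 0.05, adjusted p = 0.00105), DNAJB1 rose by 0.24 (SE 0.05, adjusted p = 0.00521) and 18 did not pass.

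Among NF-kB targets and cytokines 7 of 23 tested members fell, none rose (0 at an unadjusted p under 0.05, 0 in DESeq2) and the median was -0.25. CXCL8 (interleukin 8), a neutrophil chemokine, stood at 103, 164 and 97.6 CPM in control, 187, 168 and 106 CPM in N_28 and 119, 132 and 67.8 CPM in N_30. Control library 1 at 103 CPM lay near control library 3, while in N_28 and N_30 the library numbered 3 was far below, and the difference was -0.69 (SE 0.11, adjusted p = 0.00115). SOD2, the mitochondrial superoxide dismutase and an NF-kB target, stood at 96.5, 116 and 85.8 CPM in control, 95.9, 83.4 and 74.6 CPM in N_28 and 162, 168 and 103 CPM in N_30, a difference of -0.42 (SE 0.08, adjusted p = 0.00368). LIF, a cytokine of the interleukin 6 family, fell by 0.35 (adjusted p = 0.00335), and TRAF1, a signalling adaptor, by 1.23 (adjusted p = 0.0101). The level of TRAF1 was low, with a mean of 1.63 CPM, and its call was lost in 4 of 20 alternatives. The 7 calls became 0 with N_30 left out and 1 without N_30 library 3. They were 3 without control library 3, 4 without control library 2, N_28 library 1, N_30 library 1 or N_30 library 2, and 12 without control library 1.

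Of 26 targets of YAP and TEAD, the effectors of the Hippo pathway, 6 fell and none rose (0 at an unadjusted p under 0.05, 0 in DESeq2), with a median of -0.06. CCN2 (CTGF), a matricellular protein (ENSG00000118523, chromosome 6, 131948176 to 131951373, minus strand), stood at 117, 169 and 97.4 CPM in control, 130.2, 129 and 101 CPM in N_28 and 162, 121 and 67.0 CPM in N_30, with no overlap between the libraries numbered 3 and the rest. The difference was -0.65 (SE 0.12, adjusted p = 0.00484), and it was larger in N_30 than elsewhere (-0.53 in control, -0.36 in N_28 and -1.06 in N_30), though no gene with a symbol passed the test of a difference between groups. ANKRD1, a nuclear ankyrin repeat protein, stood at 137, 206 and 129 CPM in control, 239, 212 and 162 CPM in N_28 and 216, 205 and 109 CPM in N_30, a difference of -0.60 (SE 0.11, adjusted p = 0.00311). CCN1 (CYR61) fell by 0.37 (adjusted p = 0.00455) and IGFBP3, a binding protein of insulin-like growth factors, by 0.34 (adjusted p = 0.00335). All 6 calls were lost with N_30 left out and without N_30 library 3.

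The windows before CXCL8 and CCN2 are printed because each holds the letters of the factor its list is named for. Capitals mark the NF-kB letters GGAATTTCC in CXCL8 (chr4:73740319-73740568, plus strand) and CATTCC, the TEAD letters, read as GGAATG on the other strand in CCN2 (chr6:131951373-131951622, minus strand, printed along the gene).
CXCL8: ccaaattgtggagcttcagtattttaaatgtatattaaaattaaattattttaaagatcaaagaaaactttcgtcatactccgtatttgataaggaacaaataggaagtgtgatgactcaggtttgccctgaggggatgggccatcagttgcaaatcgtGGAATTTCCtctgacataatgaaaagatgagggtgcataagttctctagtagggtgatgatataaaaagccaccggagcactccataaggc
CCN2: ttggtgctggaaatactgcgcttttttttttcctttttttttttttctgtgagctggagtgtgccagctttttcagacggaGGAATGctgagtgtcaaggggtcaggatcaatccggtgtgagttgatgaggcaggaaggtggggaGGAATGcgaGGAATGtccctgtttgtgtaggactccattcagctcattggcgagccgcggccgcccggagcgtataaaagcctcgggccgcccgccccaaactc
GGAATTTCC was in 4 of 11 windows of the NF-kB members that fell (36.4%) and in 0.413% of all windows. CATTCC was in 2 of 4 windows of the YAP and TEAD members that fell (50.0%) and in 11.9% of all windows. These numbers of windows are small, the members are known targets of the factors, and among all 384 windows of genes that fell the shares were 1.56% and 9.90%. The amino acid response letters TTGCATCA were in 1 of 12 windows of integrated stress response members that fell (8.33%) and in 0.772% of all windows.

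Genes of the hypoxia response fell in part. Of 22 tested hypoxia genes 6 fell and 16 did not pass, with a median of -0.14, and NDRG1 stood at 39.9, 35.0 and 28.5 CPM in control, 31.7, 27.5 and 21.7 CPM in N_28 and 42.2, 38.9 and 27.7 CPM in N_30, a difference of -0.46 (SE 0.07, adjusted p = 0.00068). Genes of glycolysis, many of which answer to the same factor, did not pass in either direction in edgeR or DESeq2 (0 of 20, median -0.01), with 5 lower at an unadjusted p under 0.05. The hypoxia calls became 0 with N_30 left out, 1 without N_30 library 3, 3 without control library 3 and 9 without control library 1.

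The mRNAs encoded by mitochondrial DNA were lower in the libraries numbered 3 as a group. Of 13, 11 fell and 2 did not pass, with a median of -0.28. In all 3 groups, 12 of the 13 lay below both other libraries, as did 9.27% of all genes tested. MT-CO1, a subunit of cytochrome oxidase (ENSG00000198804, chromosome M, 5904 to 7445, plus strand of the mitochondrial genome), stood at 11461, 11508 and 8888 CPM in control libraries 1, 2 and 3, 10545, 10519 and 8793 CPM in N_28, and 11127, 9129 and 8744 CPM in N_30. The control and N_28 libraries numbered 3 were far below their partners, while in N_30 library 2 was close to library 3. The difference was -0.28 (SE 0.06, adjusted p = 0.00822). MT-CO2 and MT-ND5, of cytochrome oxidase and complex I, fell by 0.29 and 0.32 (adjusted p = 0.00188 and 0.00309). The nuclear-encoded subunits of complex I had no call in edgeR or DESeq2 (0 of 35, median 0.01), with 1 higher at an unadjusted p under 0.05. Against control, none of the 13 was called in either knock-down in edgeR, and 0 had an unadjusted p under 0.05.

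As a share of all counts, rows of the mitochondrial genome took 3.34%, 3.30% and 3.33% in the libraries numbered 3 of control, N_28 and N_30, and 3.53% to 4.28% in the other 6. An exact permutation test of the number within groups over 27 arrangements gave a two-sided p of 0.037, the smallest it can give (0.0617 after adjustment over 10 library measures). The 100 highest genes took 17.7% to 17.8% of counts in the libraries numbered 3 and 18.2% to 18.6% in the others, with the same p. The part of these shares in the differences of single genes was not tested. Depth moved with the number too (exact p = 0.0741), and 22429 to 22508 genes had a count in the libraries numbered 3 against 21557 to 21951. Of 9 renal and HEK-type markers, 3 were tested, PAX2 rose by 0.48 and CDH16 fell (adjusted p = 0.00311 and 0.0462), and EMX2, HOXD10, UMOD and SLC12A1 had no read in any library. CDH16 did not pass in DESeq2 and was lost in 10 of 21 alternatives, and PAX2 was lost with N_30 left out and without N_30 library 3. Their summed level, nearly all of it PAX2, was 187 to 192 CPM in the libraries numbered 3 and 119.8 to 176 CPM in the others, and its part in the other differences was not tested. With all libraries thinned to the smallest, 601 genes passed, with 84 of the mitosis genes and 11 of the mitochondrial mRNAs. The 11 calls were 1 without control library 3, 2 with N_28 left out, 4 without N_30 library 3, 6 with control left out, and 7 with N_30 left out, without control library 2 or without N_28 library 3.

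**Figure D4:**
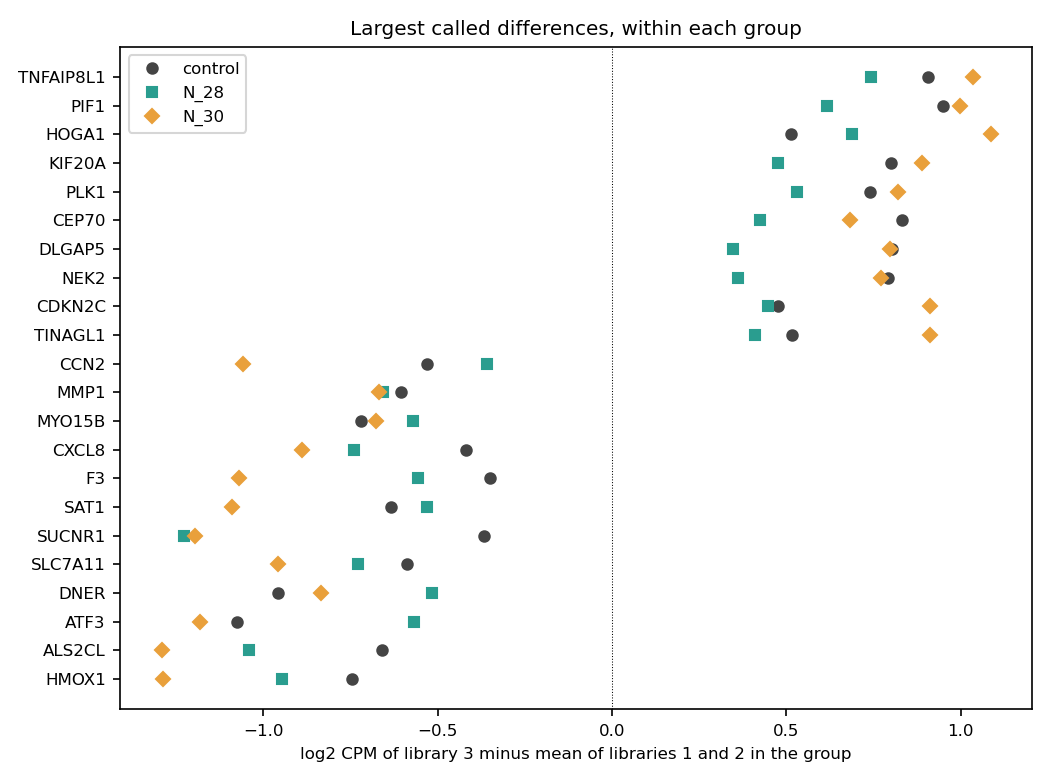
Log2 CPM of library 3 minus the mean of libraries 1 and 2 (horizontal axis) within each group, for the 10 largest rises with a symbol and the 12 largest falls. Circles are control, squares N_28 and diamonds N_30. Every symbol lies on the same side of 0 for a gene, and N_28 rises are the smallest of the 3 for 9 of 10 genes.

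The median of the mitosis genes was above 0 in each group. The median over the 140 mitosis genes was 0.29 in control, 0.18 in N_28 and 0.33 in N_30. A test of whether the difference of number 3 varies between the groups called 3 of 15019 rows in edgeR (0.02%), with 321 (2.14%) at an unadjusted p under 0.05. All 3 are rows without a gene symbol, and no mitosis gene was among them. The test has a single library numbered 3 in each group and 3 residual degrees of freedom. Few calls therefore do not show that the difference is alike in the groups. Of the 336 genes called higher, 326 lay above both other libraries in all 3 groups, and of the 328 called lower, 309 lay below. Over all tested genes these shares were 8.62% and 9.27%, and the test that chose the called genes used the same libraries, so nothing is read from the counts.

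The mitosis genes can be set beside their own values in the knock-down comparisons, which use the same libraries. Against control, 1538 genes were called in N_28 (10.2%, with 4.49% higher and 5.75% lower) and 130 in N_30 (0.866%, with 0.459% higher and 0.406% lower) without a term for the number. Among the 140 mitosis genes, 1 was higher and 4 lower in N_28 (16 at an unadjusted p under 0.05), with a median of 0.04, and none was called in N_30 in edgeR (8 at an unadjusted p under 0.05), with a median of -0.05. PLK1 differed from control by -0.02 in N_28 and 0.00 in N_30 (adjusted p = 0.967 and 0.998). CENPF differed by -0.06 and -0.13 (adjusted p = 0.871 and 0.843). HMOX1 differed by -0.08 and 0.74 (adjusted p = 0.930 and 0.461), and with the number as a replicate block the value in N_30 was 0.70 and passed (adjusted p = 0.0345). MMP1 differed by 0.17 and 0.12 (adjusted p = 0.716 and 0.903). F3 (tissue factor) and SUCNR1 (the succinate receptor) fell with the number and also in N_28, by 1.62 and 4.17 (adjusted p = 0.00218 and 2.79e-05). F3 in N_30 differed by 0.61 (adjusted p = 0.343), and by 0.57 with the block, which passed (adjusted p = 0.0347). With the number as a replicate block, 2301 genes were called in N_28 (15.3%, with 7.11% higher and 8.21% lower) and 424 in N_30 (2.82%, with 1.55% higher and 1.27% lower). Of the mitosis genes, 9 were then higher and 4 lower in N_28, and 1 was higher and 3 lower in N_30.

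**Figure D5:**
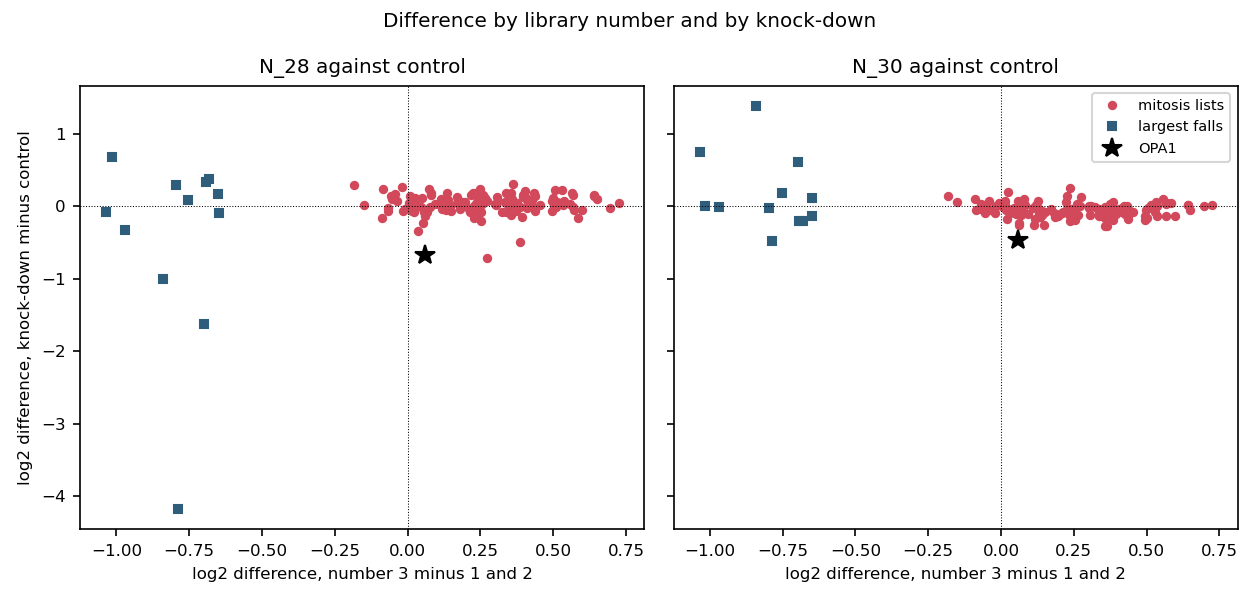
Log2 difference by library number (horizontal axis) against log2 difference of a knock-down from control (vertical axis), for N_28 (left) and N_30 (right). Red circles are the 140 mitosis genes, blue squares the 12 largest falls and the star OPA1, which lies at 0.06 on the horizontal axis and at -0.68 and -0.46 on the vertical.

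Groups with no call or few calls can be read from the same fit. Over all genes tested, 2.24% were called higher and 2.18% lower. None of 76 tested cytosolic ribosomal protein genes passed in edgeR or DESeq2, with 2 higher at an unadjusted p under 0.05 and a median of 0.03. None of 30 ribosome biogenesis genes passed in either, with 1 higher and 1 lower at an unadjusted p under 0.05. Of 26 genes of mitochondrial fusion and fission, GDAP1 fell by 0.33 (adjusted p = 0.0418) and 25 did not pass. A single call among 26 is near the 2.18% called lower over all genes, so nothing is read from it about the list. In cholesterol and lipid synthesis, HMGCS1, MSMO1 and SQLE fell by 0.34, 0.33 and 0.20 and SREBF1 rose by 0.31 among 32 genes (adjusted p = 0.00335, 0.0125, 0.0134 and 0.0481), with a median of -0.01. SREBF1 did not pass in DESeq2, was lost in 12 of 22 alternatives, and did not lie above the other libraries in every group. HMGCS1 was lost in 2 of the 22, MSMO1 in 4, SQLE in 6 and GDAP1 in 11, in each case with N_30 library 3 left out among them. Of 32 lysosome genes 3 fell, with a median of -0.06, and 13 were lower and 0 higher at an unadjusted p under 0.05. In all 3 groups, 11 of the 32 lay below both other libraries, as did 9.27% of all genes tested. The calls of ASAH1, CD63 and NAGLU were lost in 6, 10 and 10 of 22 alternatives. Among 25 tested interferon genes IFIT2 rose by 0.38 (adjusted p = 0.0125), a call lost in 5 of 22 alternatives. That is 1 call, near the 2.24% called higher over all genes. Of 26 tested immediate early genes, ATF3 and FOSB fell and 24 did not pass. The level of FOSB was low, with a mean of 1.61 CPM, and its call was lost in 5 of 20 alternatives.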

How the data were processed

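Gene counts of 9 libraries were analysed. The deposited table holds raw read counts, whole numbers for 60448 rows under human Ensembl identifiers. For the aligner, counter, annotation and strand setting, nothing is given in the sources used here, so overlapping genes and near-identical copies are uncertain. The submitters' processing notes name the build mm8, a mouse assembly, while the identifiers are human. Symbols came from a gene name table (56434 rows) and GENCODE release 29 (434), and 3580 rows had none. Motifs were read from a RefSeq promoter table on GRCh38.p14.

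Counts were TMM-scaled and fitted with edgeR 4.0.16 (quasi-likelihood, R 4.3.3) on 15019 genes that passed its filter (minimum count 10), with terms for group and for number 3, 5 residual degrees of freedom and a common biological coefficient of variation of 0.0607. Calls were made below 0.05 after Benjamini-Hochberg adjustment over all genes tested. The SE is the fold change divided by the root of its F statistic. Values within a group are from log2 CPM with a prior count of 2. The limit that a count of 0 allows (3 counts) is 0.182 CPM in the shallowest library. The members and the gene lists were chosen with earlier results of these data known.

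Named genes were CENPF, CCNB1, PTTG1, OPA1, the 12 largest rises and 12 largest falls (mean of at least 5 CPM, no overlap in any group), up to 4 called genes of each list with the lowest adjusted p, and up to 2 members that did not pass. Others were named after their values were seen, and some genes are not reported here. Alternatives were RLE scaling, DESeq2 1.42.0, other filters, a replicate block, GC correction (loess), libraries or groups left out, and, chosen after seeing the data, thinned counts and the table without mitochondrial and unnamed rows. On simulated counts with 200 changed genes, the fit recovered 59 of 100 changed by 0.3 on the log2 scale and 99 of 100 changed by 0.6 for number 3 against numbers 1 and 2, with 9 false calls.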

Additional observations from a re-analysis of the deposited data

Results flagged for a closer look

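The difference between the libraries numbered 3 and the others varied between groups in 3 rows, all without a gene symbol. ENSG00000277644 (adjusted p = 0.00336, edgeR) had 17, 11 and 0 counts in control libraries 1, 2 and 3, 0, 1 and 104 in N_28 and 0, 0 and 0 in N_30. ENSG00000276924 (adjusted p = 6.96e-06) had 49, 41 and 921 counts in control, 73, 57 and 99 in N_28 and 46, 55 and 100 in N_30. ENSG00000275783 (adjusted p = 0.00106) had 265, 146 and 181 counts in control, 220, 211 and 6 in N_28 and 164, 253 and 318 in N_30. In each, 1 library numbered 3 stood far from the rest of its group.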

How the results depend on the processing

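With the number as a replicate block of 3 levels, 687 genes were called in place of 664, with 88 mitosis genes, and with GC correction added 888 were called. The same-number correlations of deviations from group means were 0.122, 0.169 and 0.306 between control and N_30, -0.0588, 0.0358 and 0.142 between control and N_28, and 0.0268, -0.0253 and 0.235 between N_28 and N_30. In the pairs of number 3 each library matched its own number best. Between control and N_30 the libraries numbered 1 and 2 also matched their own number best, and in the other pairs of groups they did not. The deviations within a group depend on each other, and a pairing by number was not tested. The labels do not state one. With the block, the calls of N_30 against control were 424 in place of 130.

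RLE scaling (651), DESeq2 (666), a bound of 5 CPM (634), thinned counts (601) and the table without mitochondrial and unnamed rows (653) kept the count of 664 within 1.5 times, and a bound of 0.5 on the log2 scale left 114. With no filter on low counts it was 1015, with 21 integrated stress response and 11 NF-kB genes lower, 28 calls between groups and 53 for number 2 against number 1. Thinning left 4 G1/S and 2 endoplasmic reticulum genes.

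With N_30 left out the calls were 105 in all, 41 for mitosis, 7 for mitochondrial mRNAs and 0 for G1/S, integrated stress response, NF-kB, YAP and TEAD, hypoxia and endoplasmic reticulum. With N_28 left out they were 337 in all, 1 for G1/S, 2 for mitochondrial mRNAs, 6 for integrated stress response and 1 for endoplasmic reticulum. With control left out they were 1 for G1/S, 6 for mitochondrial mRNAs and 1 for endoplasmic reticulum. Leaving out 1 library, or all those numbered 1 or 2, gave 132 to 1531 calls in all, 52 to 90 for mitosis, 1 to 13 for G1/S, 1 to 12 for mitochondrial mRNAs, 0 to 23 for integrated stress response, 1 to 12 for NF-kB, 0 to 9 for YAP and TEAD, 1 to 9 for hypoxia and 0 to 9 for endoplasmic reticulum. Fewer libraries are tested in these fits, and the cause was not tested further.

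Of 95 named genes that were called, 33 passed in every alternative that tested them (22, or 21 for ENSG00000278047, which the table without unnamed rows lacks) and none reversed. Among them were 19 of the 20 named from the mitosis lists, 10 of the 12 largest rises and 3 of the 12 largest falls (ALS2CL, SAT1 and MMP1). Levels under 0.182 CPM are at the limit of depth.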

Other observations

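PAX2, a transcription factor of kidney development, stood at 168, 114 and 180.3 CPM in control, 119, 128 and 182 CPM in N_28 and 138, 118 and 185 CPM in N_30. The 3 libraries numbered 3 were the highest of the 9 and lay within 5 CPM of each other, while the other 6 ranged from 114 to 168 CPM, and the difference was 0.48 (SE 0.09, adjusted p = 0.00311). It did not pass with N_30 left out or without N_30 library 3 (adjusted p up to 0.11). BGN (biglycan), a matrix proteoglycan, rose with the number by 0.32 (SE 0.06, adjusted p = 0.0036) and also in both knock-downs against control, by 1.48 in N_28 and 0.89 in N_30 (adjusted p = 8.73e-06 and 0.00358), in comparisons that use the same libraries. The call of BGN with the number was lost with N_28 or N_30 left out, without N_28 library 3 and without the libraries numbered 2.

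Across chromosomes, 14 of the 16 tested rows of the mitochondrial genome were called lower and none higher, with a median of -0.28. The medians of the other chromosomes lay between -0.04 and 0.02.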
